A study of Homo sapiens with 6 samples.

Results

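The genes described here encode the working parts of the lysosome in A549 cells: the subunits of the vacuolar proton pump (V-ATPase), the cathepsins and the lysosome-associated membrane proteins (LAMPs). They were taken as every protein-coding row of the deposited count table whose gene name starts with ATP6V0 or ATP6V1, or is CTS or LAMP followed by the letter or number of a family member. The rule found 43 of 58735 genes, of which 19951 are protein coding: 13 genes of the V1 sector, 9 of the V0 sector, 15 cathepsins, 4 LAMPs and 2 rows that carry a subunit's name without being one, ATP6V1FNB and the readthrough ATP6V1G2-DDX39B. RNA was measured in 3 libraries titled OE_GPX3, from A549 cells labelled as overexpressing GPX3, and in 3 titled Vector, labelled wild type in both genotype and treatment. A549 is an established human lung adenocarcinoma line. The sources used here do not state how the overexpression was made or whether replicates are separate cultures or clones. The p-values below therefore weigh differences against a spread between libraries that may be technical. GPX3 encodes a secreted glutathione peroxidase.

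The V-ATPase pumps protons into lysosomes, endosomes and secretory vesicles. Its V1 sector sits in the cytosol and hydrolyses ATP, and its V0 sector lies in the membrane and carries the protons, with the a subunit and the ring of c subunits forming the path. Cathepsins are proteases that work best in the acid this pump makes, most of them cysteine proteases, with CTSD and CTSE aspartic and CTSA and CTSG serine enzymes. LAMP1 and LAMP2 are heavily glycosylated proteins that line the lysosomal membrane. Many lysosomal genes carry the palindrome CACGTG or longer forms of it, to which TFEB and its relatives bind, close to their start.

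As a check of the labels, GPX3 stood at 1311, 1031 and 1361 CPM (counts relative to library size, scaled by TMM) in the OE_GPX3 libraries, against 36, 33.8 and 39.6 CPM in the Vector libraries. Total counts ranged from 15831693 to 18751815 per library. All 7 epithelial and A549 markers passed the filter on low counts and summed to between 10048 and 12014 FPKM (counts per gene length and library size, as deposited) in OE_GPX3 and between 9272 and 9803 in Vector. Markers of the lung lineage summed to at most 0.263 FPKM in OE_GPX3 and 0.189 in Vector, those of fibroblasts to at most 0.704 and 0.44, and those of endothelium to at most 0.109 and 0.115. Of 5 leukocyte markers CD14 made up nearly all of a sum of 8.43 to 9.11 FPKM in OE_GPX3 and 6.27 to 8.69 in Vector, while PTPRC, the defining one, had 7 counts over all 6 libraries. In bulk RNA of this kind, fewer cells expressing a gene and less RNA per cell cannot be told apart.

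A promoter window was matched by symbol in RefSeq (GRCh38.p14, from 250 bases before to 50 bases after a start) for 28 of the 43 genes, in 35 windows, since some genes have several starts. CACGTG, which reads the same on both strands, was found in 9 of the 35 windows (25.7%), against 7.26% of all 35116 windows of that length. The 9 include 2 overlapping windows of ATP6V0E2, in which the same site, at -72 and -68, is counted in each. The 35 include 1 window of the readthrough ATP6V1G2-DDX39B, without CACGTG. The longer TCACGTGA was in 4 of 35 (11.4%, against 0.98% of all windows). The full CLEAR palindrome, which adds a base at each end of that, was in 1 of 35, that of ATP6V1G1 (2.86%, against 0.353%). Each longer form contains the shorter ones. By gene, CACGTG was present for 8 of 28: ATP6V0B, ATP6V0D1, ATP6V0E2, ATP6V1G1, CTSA, CTSD, CTSF and LAMP1. The share by gene over all genes was not computed. The windows of the 4 genes with the 8-letter form, and of ATP6V0B, which has CACGTG at 2 places, are printed to show it in place. They were chosen for carrying it, and most members with a window do not. Capitals mark CACGTG and, where present, its longer forms.
LAMP1 (chr13:113296989-113297288, plus strand): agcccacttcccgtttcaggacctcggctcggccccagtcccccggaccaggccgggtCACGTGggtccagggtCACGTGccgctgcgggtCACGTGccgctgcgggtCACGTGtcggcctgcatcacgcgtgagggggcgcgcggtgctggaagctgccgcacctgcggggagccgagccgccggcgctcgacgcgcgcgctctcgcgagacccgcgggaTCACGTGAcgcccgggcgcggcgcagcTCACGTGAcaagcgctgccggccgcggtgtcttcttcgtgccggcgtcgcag
ATP6V0D1 (chr16:67481108-67481407, minus strand): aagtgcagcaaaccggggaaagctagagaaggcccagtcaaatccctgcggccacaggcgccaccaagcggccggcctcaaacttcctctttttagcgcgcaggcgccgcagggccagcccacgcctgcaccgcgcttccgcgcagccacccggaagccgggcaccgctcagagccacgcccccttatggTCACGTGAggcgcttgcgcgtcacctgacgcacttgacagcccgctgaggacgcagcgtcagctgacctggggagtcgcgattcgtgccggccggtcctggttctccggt
ATP6V1G1 (chr9:114587519-114587818, plus strand): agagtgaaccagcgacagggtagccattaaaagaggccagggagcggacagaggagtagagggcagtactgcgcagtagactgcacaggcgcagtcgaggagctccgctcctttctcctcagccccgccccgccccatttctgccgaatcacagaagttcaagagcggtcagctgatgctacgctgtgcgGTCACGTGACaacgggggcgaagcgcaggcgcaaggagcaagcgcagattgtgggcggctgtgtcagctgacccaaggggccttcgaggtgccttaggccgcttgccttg
CTSA (chr20:45891085-45891384, plus strand): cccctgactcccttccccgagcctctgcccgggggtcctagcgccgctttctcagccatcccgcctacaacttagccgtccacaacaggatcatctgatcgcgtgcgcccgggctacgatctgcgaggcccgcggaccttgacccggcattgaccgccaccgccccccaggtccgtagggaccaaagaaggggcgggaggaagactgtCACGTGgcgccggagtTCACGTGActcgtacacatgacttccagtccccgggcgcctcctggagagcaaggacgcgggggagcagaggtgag
ATP6V0B (chr1:43974710-43975009, plus strand): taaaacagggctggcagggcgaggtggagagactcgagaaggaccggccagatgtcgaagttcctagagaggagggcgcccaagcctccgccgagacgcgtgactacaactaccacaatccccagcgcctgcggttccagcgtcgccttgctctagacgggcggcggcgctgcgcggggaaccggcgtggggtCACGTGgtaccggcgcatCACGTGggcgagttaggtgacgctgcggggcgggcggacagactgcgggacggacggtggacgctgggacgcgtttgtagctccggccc
In LAMP1 CACGTG occurred 6 times, between 192 bases and 1 base before the start (positions -192 to -1 for its first letter). In ATP6V1G1, ATP6V0D1 and ATP6V0B it first occurred at -58, -59 and -57, in CTSD at -47 and in CTSA at -42. These matches are letters in a window and say nothing of whether a factor is bound.

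Levels per length ranged widely between subunits of the same pump. In the V1 sector ATP6V1F, a subunit of the central stalk, was the highest at 145, 171 and 178 FPKM in the OE_GPX3 libraries, against 127, 128 and 143 FPKM in the Vector libraries. ATP6V1G1 and ATP6V1E1, which form the outer stalks, followed at 46.2 ± 3.67 and 21.2 ± 1.32 FPKM in OE_GPX3, against 52.4 ± 3.50 and 22.7 ± 0.982 FPKM in Vector (SD, n = 3 each). The catalytic subunit ATP6V1A and its partner in the ATP-binding ring, ATP6V1B2, were at 6.36 ± 0.728 and 7.67 ± 0.362 FPKM in OE_GPX3, against 6.82 ± 0.668 and 7.39 ± 0.318 FPKM in Vector (SD, n = 3 each), and their libraries overlapped. ATP6V1H, a regulatory subunit, was at 9.99 ± 0.798 FPKM in OE_GPX3 and 9.78 ± 0.387 in Vector, and the stalk subunit ATP6V1D at 5.40 ± 1.09 and 6.04 ± 0.215 (SD, n = 3 each). These lengths are the union of all annotated exons of a gene, 789 bases for ATP6V1F and 13729 for ATP6V0A2, so a gene with long exons that A549 cells do not use has a lower FPKM.

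In the membrane sector the small subunit ATP6V0E1 was the highest, at 111, 115 and 97.3 FPKM in OE_GPX3, against 102, 100 and 99.9 FPKM in Vector. ATP6V0B, the c'' member of the proton-carrying ring, came next at 34.3 ± 4.30 FPKM in OE_GPX3 and 27.8 ± 3.06 in Vector (SD, n = 3 each). ATP6V0C, the c subunit that makes up most of the ring, was lower per length, at 10.1, 13.1 and 14.2 FPKM in OE_GPX3, against 8.63, 7.67 and 8.15 FPKM in Vector. It ranked 3668 by mean FPKM among the 19951 protein-coding genes, where ATP6V1F ranked 228 and ATP6V0E1 360. ATP6V0C has 4 pseudogene rows in the table, all with 0 counts in every library, and the treatment of reads that match several copies is not stated, so its level is uncertain. ATP6V0D1, which joins the ring to the stalk, was at 12.1 ± 1.28 FPKM in OE_GPX3 and 11 ± 0.483 in Vector (SD, n = 3 each).

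Of the 22 subunit genes, 16 belong to 7 subunits with more than 1 gene, and in each of these a single gene held most of the summed FPKM. ATP6V0D1, ATP6V1B2 and ATP6V1G1 held 99.9%, 99.4% and 99.7% of theirs in OE_GPX3, and 99.7%, 99.7% and 99.7% in Vector. Their partners ATP6V0D2, ATP6V1B1 and ATP6V1G2, known from bone-resorbing cells, kidney and nerve cells, had 6, 9 and 30 counts over all 6 libraries, and ATP6V1G3 had 0, which allows up to 3 counts or 0.189 CPM in the shallowest library. ATP6V1C1 held 93.4% ± 2.65 of the C subunit in OE_GPX3 and 94.7% ± 0.458 in Vector, and ATP6V1E1 86.9% ± 0.606 and 88.1% ± 0.978 of the E subunit (SD, n = 3 each), the rest of which was ATP6V1E2, otherwise known from testis. Of the a subunit, which decides where the pump goes in the cell, ATP6V0A1 held 87.6% ± 0.807 in OE_GPX3 and 84.7% ± 0.996 in Vector (SD, n = 3 each). ATP6V0A2, the Golgi form, held 11.4%, 10.9% and 10.6% in the OE_GPX3 libraries, against 14.1%, 15.2% and 13.9% in the Vector libraries. The highest OE_GPX3 share of ATP6V0A2 lay below the lowest Vector share. ATP6V0A4, the kidney form, held 1.41% ± 0.441 in OE_GPX3 and 0.935% ± 0.548 in Vector (SD, n = 3 each). ATP6V0E2 held 8.86% ± 1.38 of the e subunit in OE_GPX3 and 8.45% ± 0.595 in Vector (SD, n = 3 each), but 28.7% and 27.7% of its counts, because its annotated exons are 6751 bases long and those of ATP6V0E1 1623. No test was made of these shares.

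Among the cathepsins CTSB, a cysteine protease, had the highest FPKM, followed by CTSD, CTSZ and CTSL. CTSB stood at 118, 117 and 117 FPKM in OE_GPX3, against 104, 98.2 and 111 FPKM in Vector. CTSD, the main aspartic protease of lysosomes, stood at 108, 103 and 113 FPKM in OE_GPX3, against 89.3, 88.9 and 100 FPKM in Vector, and CTSZ, a carboxypeptidase, at 108, 109 and 104 FPKM, against 91.6, 82.8 and 92.8 FPKM. CTSD and CTSZ overlapped in both groups, and CTSB lay above both in OE_GPX3 but overlapped CTSD in Vector. CTSB, CTSD, CTSZ and CTSL held 24.4%, 22.5%, 22.2% and 13.8% of the summed cathepsin FPKM in OE_GPX3 and 24.7%, 22.0%, 21.1% and 14.8% in Vector. CTSA, which also protects other lysosomal enzymes, was at 27.9 ± 0.525 FPKM in OE_GPX3 and 24.0 ± 1.05 in Vector, and CTSF at 27.7 ± 0.533 and 23.7 ± 3.14 (SD, n = 3 each). CTSC, which activates serine proteases of immune cells, CTSH and CTSS were between 7.42 and 9.02 FPKM in OE_GPX3 and between 6.84 and 8.39 in Vector. CTSV, the close relative of CTSL, CTSK, the bone collagen-degrading enzyme, and CTSO were at 1.01, 0.644 and 0.347 FPKM in OE_GPX3, against 1.03, 0.635 and 0.681 FPKM in Vector. CTSE, CTSG and CTSW, of stomach and blood cells, had 1, 5 and 9 counts over all 6 libraries.

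LAMP1 held 73.5% ± 1.75 of the summed LAMP FPKM in OE_GPX3 and 69.3% ± 3.84 in Vector, and LAMP2 25.1% ± 1.53 and 28.9% ± 3.65 (SD, n = 3 each). LAMP3, known from dendritic cells and type II lung cells, was at 0.626 ± 0.173 FPKM in OE_GPX3 and 0.759 ± 0.0416 in Vector (SD, n = 3 each), and LAMP5, of nerve and dendritic cells, had 4 counts in all. The sum over the 15 cathepsins was 488, 477 and 477 FPKM in OE_GPX3, against 422, 400 and 444 FPKM in Vector. The sum over the V0 genes was 180, 198 and 179 FPKM in OE_GPX3, against 164, 163 and 169 FPKM in Vector, and over the V1 genes 250, 282 and 277 FPKM, against 240, 246 and 252 FPKM. The sum over the LAMPs was 51.1, 47.7 and 47.1 FPKM in OE_GPX3, against 43.9, 38.1 and 44.5 FPKM in Vector. For cathepsins, V0 genes and LAMPs the groups did not overlap, whereas for V1 genes the lowest OE_GPX3 sum lay below the highest Vector sum. Of all single genes tested, 8.62% were higher in OE_GPX3 without overlap, by CPM, a share that does not apply to sums of several genes. The sums follow their most abundant genes, were not corrected for GC content (described below) and were not tested.

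**Figure D1:**
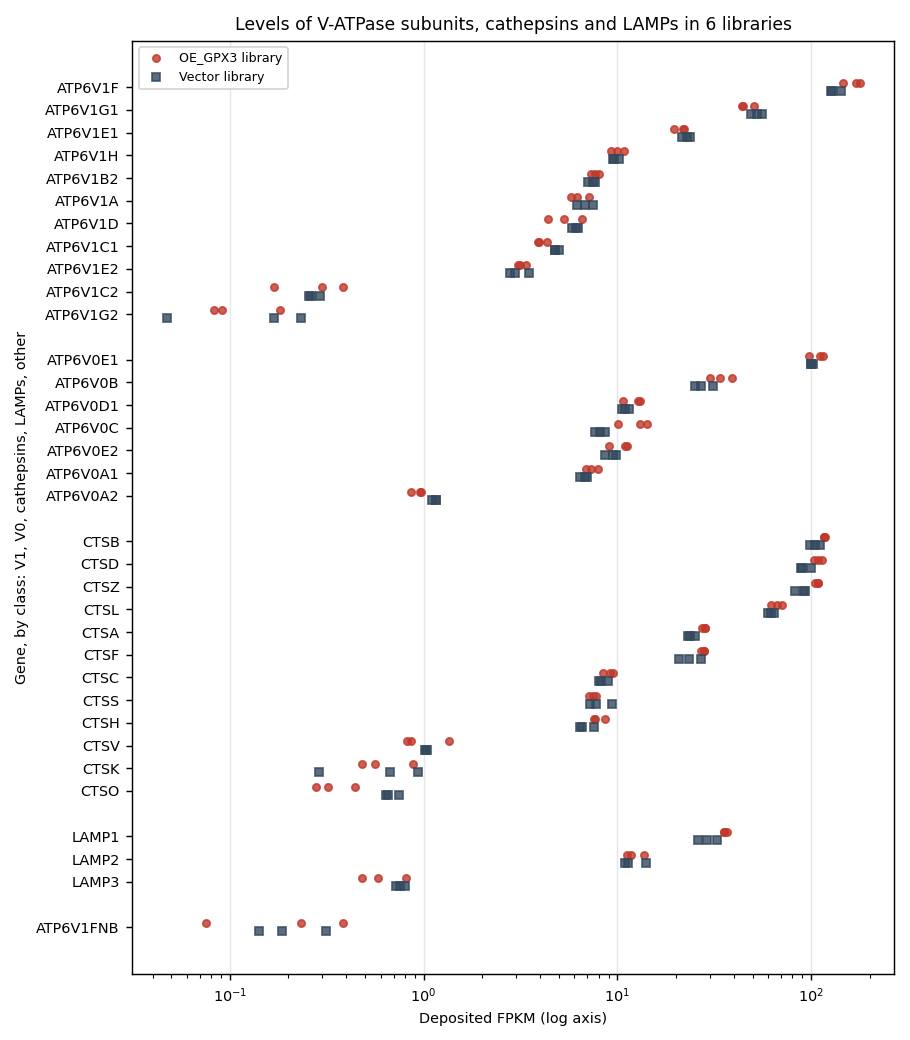
Deposited FPKM on a log axis for each member with a mean of at least 0.1 FPKM, by class, with 1 point for each of the 3 OE_GPX3 libraries above 1 square for each of the 3 Vector libraries. ATP6V1F, ATP6V0E1, CTSB, CTSD and CTSZ lie near 100 FPKM, and the second genes of most subunits lie far below the first.

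Whether these transcripts differed between OE_GPX3 and Vector was asked in 1 fit over all genes. Of the 43 members 33 passed the filter on low counts, and 0 of the 33 were called at an adjusted p under 0.05 (edgeR's quasi-likelihood test), where 38 of all 14458 genes tested were (0.263%). DESeq2 called 1 of the 33, ATP6V0C, and 116 of all genes (0.802%). At an unadjusted p under 0.05, edgeR had 6 members higher (18.2%, against 6.83% of all genes tested) and 3 lower (9.09%, against 7.76%). The groups did not overlap for 7 members with OE_GPX3 higher (21.2%, against 8.62% of all genes tested) and for 3 with OE_GPX3 lower (9.09%, against 9.9%). The 10 members left out had at most 42 counts over all 6 libraries. With standard errors of 0.10 to 0.15 on the log2 scale for most members, the intervals given below bound what could be seen with 3 libraries per group.

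The member nearest to a call was ATP6V0C (ENSG00000185883, chromosome 16, 2513870 to 2520218, plus strand, hg38). It had 272, 331 and 327 counts in the OE_GPX3 libraries, against 233, 226 and 201 counts in the Vector libraries, or 15.3, 19.5 and 21.2 CPM against 13.1, 11.6 and 12.3 CPM. Every OE_GPX3 library lay above every Vector library. The log2 fold change was 0.59 (SE 0.15, 95% interval 0.29 to 0.89), 1.51-fold higher, with an edgeR adjusted p of 0.0607. It was called by DESeq2 (adjusted p = 0.0275), with no filter on low counts, and without Vector replicate 1 or OE_GPX3 replicate 1 (log2 fold changes 0.64 and 0.72), and over all alternatives its adjusted p ran from 0.00149 to 0.619. ATP6V0B, its partner in the ring, had 108, 137 and 119 CPM in OE_GPX3, against 90.5, 96.9 and 111 CPM in Vector, so the lowest OE_GPX3 library lay below the highest Vector library. Its log2 fold change was 0.29 (SE 0.11, edgeR adjusted p = 0.234). Without OE_GPX3 replicate 1 ATP6V0B was called (log2 fold change 0.37, edgeR adjusted p = 0.0261). That setting called 657 of all 14707 genes tested, against 38 with all 6 libraries. Without Vector replicate 1 it was 116 of 14727, and with no filter 129 of 26840.

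ATP6V0E1, the most abundant V0 transcript, had 182, 186 and 157 CPM in OE_GPX3, against 169, 165 and 163 CPM in Vector, with overlap (log2 fold change 0.08, SE 0.10, edgeR adjusted p = 0.751). ATP6V0E2, ATP6V0A1 and ATP6V0D1 had log2 fold changes of 0.14, 0.12 and 0.12, also with overlapping libraries. ATP6V0A2 went the other way, at 13.3, 11.7 and 13.1 CPM in OE_GPX3, against 16.3, 16.1 and 15.2 CPM in Vector, without overlap (log2 fold change -0.32, SE 0.14, edgeR adjusted p = 0.306). Of 7 V0 genes tested, 6 had a fold change above 0 and the median log2 fold change was 0.12, beside -0.02 over all genes tested, of which 47.4% were above 0.

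In the V1 sector the 10 tested genes were split, 5 above and 5 below 0, with a median log2 fold change of -0.05. ATP6V1F had 115, 135 and 140 CPM in OE_GPX3, against 102, 102 and 114 CPM in Vector, without overlap (log2 fold change 0.30, SE 0.11, 95% interval 0.08 to 0.51, edgeR adjusted p = 0.205). Without OE_GPX3 replicate 1 it was called (log2 fold change 0.38, edgeR adjusted p = 0.0207), as were 657 of all 14707 genes tested. ATP6V1C1, whose product binds the outer stalks and leaves when the pump comes apart, had 22.9, 25.4 and 22.8 CPM in OE_GPX3, against 29.6, 28.1 and 27.9 CPM in Vector. Each OE_GPX3 library was below each Vector library (log2 fold change -0.27, SE 0.12, edgeR adjusted p = 0.313). ATP6V1G1 had 57.5, 65.6 and 57.6 CPM in OE_GPX3, against 69.5, 73.8 and 64.2 CPM in Vector, with overlap (log2 fold change -0.20, SE 0.11, edgeR adjusted p = 0.397). The core subunits ATP6V1A and ATP6V1B2 had log2 fold changes of -0.11 (95% interval -0.36 to 0.14) and 0.04 (-0.18 to 0.26). ATP6V1D, ATP6V1E1, ATP6V1E2, ATP6V1H and ATP6V1C2 had -0.18, -0.12, 0.04, 0.02 and 0.06, and ATP6V1FNB, the row that is no subunit, 0.10. ATP6V1D overlaps EIF2S1 and MPP5, ATP6V1E2 overlaps RHOQ and ATP6V1C2 overlaps PDIA6, each on the other strand. The strand setting of the counting is not stated, which leaves these 3 uncertain. EIF2S1 and RHOQ each had a log2 fold change of -0.27, PDIA6 0.20 and MPP5 0.08. ATP6V0E2, CTSA and CTSD also overlap other rows, with mean counts of at most 30.3 per library.

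Of 12 cathepsins tested 0 were called. CTSZ had 222, 222 and 210 CPM in OE_GPX3, against 190, 171 and 190 CPM in Vector (log2 fold change 0.25, SE 0.10, edgeR adjusted p = 0.262). CTSD had 341, 323 and 351 CPM in OE_GPX3, against 284, 281 and 315 CPM in Vector (log2 fold change 0.21, SE 0.10, edgeR adjusted p = 0.339). CTSA had 167, 160 and 164 CPM in OE_GPX3, against 138, 140 and 148 CPM in Vector (log2 fold change 0.20, SE 0.10, edgeR adjusted p = 0.345). In these 3 genes and in CTSB, at 884, 864 and 864 CPM in OE_GPX3, against 784, 738 and 832 CPM in Vector (log2 fold change 0.15, SE 0.10, edgeR adjusted p = 0.493), the groups did not overlap. CTSF had 81.3, 78.4 and 81.2 CPM in OE_GPX3, against 69.2, 60.7 and 78.6 CPM in Vector, with a slight overlap (log2 fold change 0.21, SE 0.11, edgeR adjusted p = 0.377). CTSH, CTSC and CTSL, at 0.20, 0.09 and 0.08, overlapped as well. In all, 9 of the 12 were above 0 (75%, against 47.4% of all genes tested), and the median log2 fold change was 0.12, beside -0.02. Without overlap, 4 were higher in OE_GPX3 (33.3%, against 8.62% of all genes tested) and 1 lower (8.33%, against 9.9%). The 4 higher lie above the members' median GC content, where 15 of 16 members were above 0, as described below.

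CTSO, a cysteine protease of wide but low expression (ENSG00000256043, chromosome 4, 155924118 to 155953917, minus strand, hg38), had the largest fold change of any member tested. Its counts were 17, 14 and 20 in the OE_GPX3 libraries, against 40, 38 and 31 in the Vector libraries, or 0.953, 0.826 and 1.30 CPM against 2.26, 1.95 and 1.90 CPM. The groups did not overlap. The log2 fold change was -0.99 (SE 0.33, 95% interval -1.67 to -0.32), 1.99-fold lower, with an edgeR adjusted p of 0.176, and DESeq2 gave no adjusted p at this count. CTSS, an antigen-processing enzyme, was at -0.15 with overlap, where Vector replicate 1 was the highest of all 6 libraries at 40.5 CPM. CTSV and CTSK had log2 fold changes of -0.04 (95% interval -0.46 to 0.39) and 0.00 (-0.79 to 0.79). In fold, these intervals run from 0.725 to 1.31 and from 0.579 to 1.73, wider than for most members.

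LAMP1 (ENSG00000185896, chromosome 13, 113297241 to 113323672, plus strand, hg38) had 212, 202 and 202 CPM in OE_GPX3, against 170, 151 and 189 CPM in Vector, without overlap. Its log2 fold change was 0.27 (SE 0.10, 95% interval 0.06 to 0.48, edgeR adjusted p = 0.233). LAMP2, one form of which is the receptor of chaperone-mediated autophagy, had 76.3, 65.2 and 61.6 CPM in OE_GPX3, against 78.6, 64.0 and 61.3 CPM in Vector, so its log2 fold change was -0.01 (SE 0.12, 95% interval -0.24 to 0.23, edgeR adjusted p = 0.988). LAMP3 was at -0.29 (95% interval -0.82 to 0.24).

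**Figure D2:**
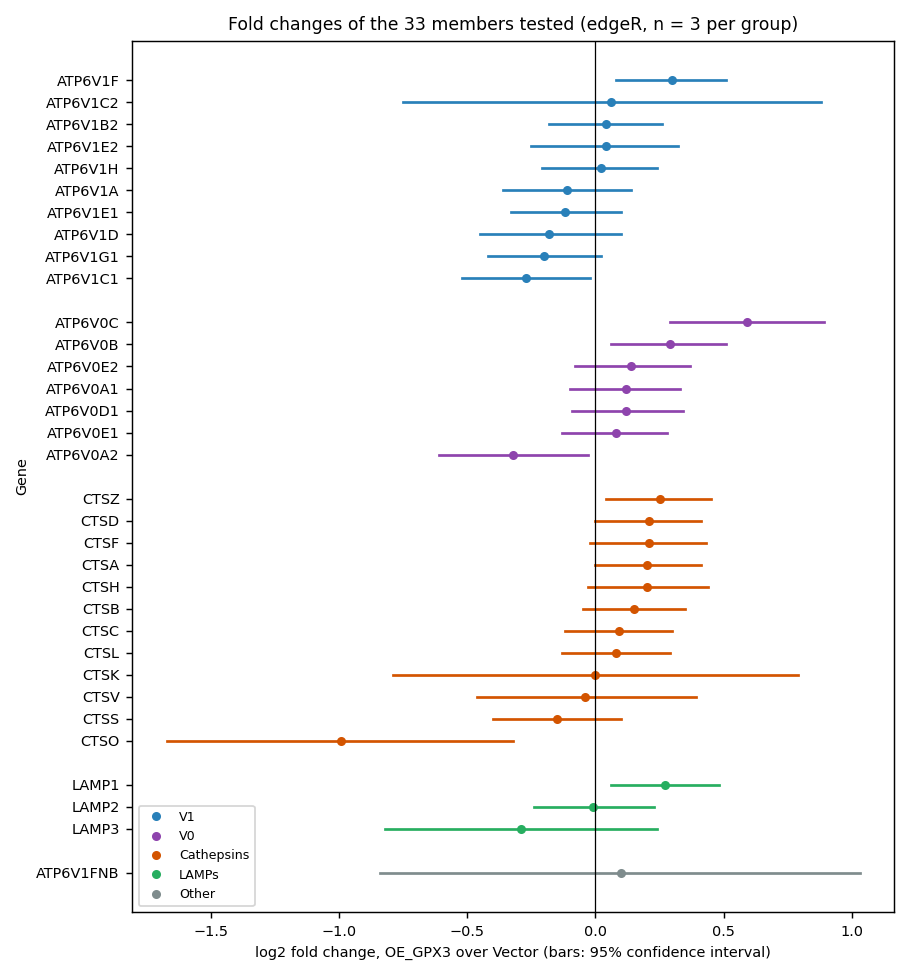
Log2 fold change of OE_GPX3 over Vector for each of the 33 members tested, by class, with bars for the 95% confidence interval. ATP6V0C at 0.59 and CTSO at -0.99 lie farthest from 0 among the members.

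**Figure D3:**
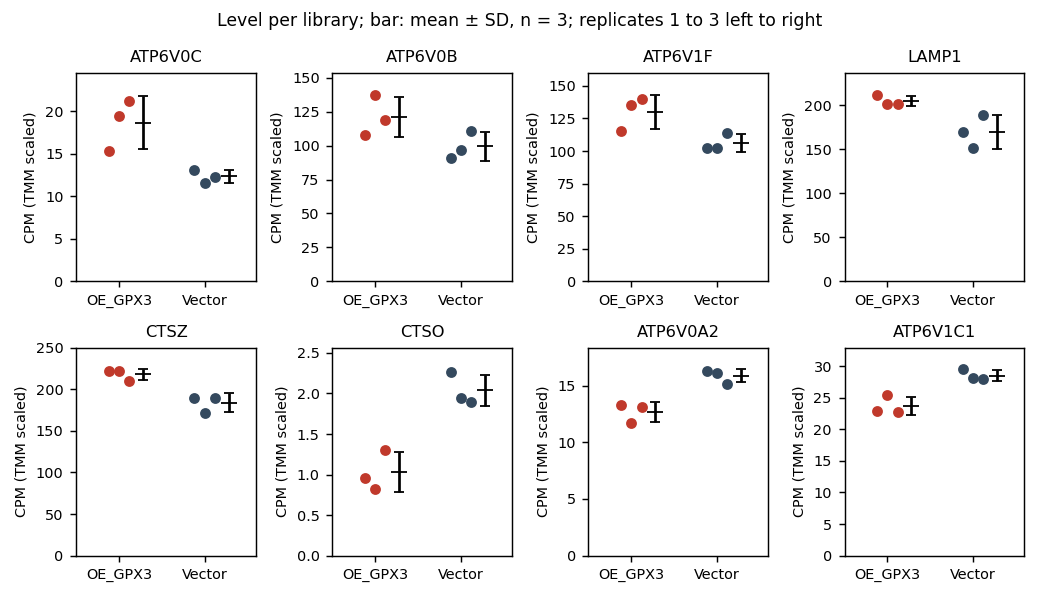
CPM in each library of the 8 members with the smallest p, with the 3 OE_GPX3 libraries left of the 3 Vector libraries, and the mean and SD beside each group. All axes start at 0, and in 7 of the 8 genes, all but ATP6V0B, the groups do not overlap. The genes were picked by p, which favours groups without overlap. Among all genes tested, 8.62% were higher and 9.9% lower in OE_GPX3 without overlap.

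Fold change moved with base composition among these genes. GC content was taken from the longest annotated transcript, and ranged from 37.7% in LAMP2 to 64.0% in CTSD. Across the 33 members tested its correlation with the log2 fold change was 0.648 (Pearson) and 0.755 (Spearman), and across 14450 genes tested it was 0.433 and 0.526, values that describe genes of the same 6 libraries and carry no test. Of the 16 members above their median GC of 46.3%, 15 had a fold change above 0 (median 0.20), and of the 17 at or below it 7 did (median -0.04). Of the members with the 12 smallest p, the 8 above 0, which were ATP6V0C (63.6%), ATP6V0B (56.5%), ATP6V1F (54.3%), LAMP1 (51.2%), CTSZ (58.3%), CTSD (64.0%), CTSA (60.7%) and CTSF (60.1%), were in the upper part. The 4 below 0, ATP6V0A2 (43.6%), ATP6V1C1 (39.7%), ATP6V1G1 (42.0%) and CTSO (40.2%), were in the lower. Of the most abundant transcripts of their classes, CTSB (52.8%) was in the upper part and ATP6V0E1 (44.1%), also above 0, in the lower. By library, the log2 level was taken relative to each gene's mean over all 6 libraries. Over all genes tested, this relative level changed per 10 percentage points of GC by 0.03, 0.02 and 0.15 in OE_GPX3, against -0.13, -0.09 and 0.01 in Vector. With that shared mean, the 6 values are not independent of each other, and none is a library's own dependence on GC. Every OE_GPX3 value lay above every Vector value, and the trend differed between libraries of the same group as well. A technical trend and one that goes with the group cannot be told apart here, and the correction below takes out both.

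After a correction of each library for its trend on GC content, the median log2 fold change was 0.08 in both parts of the members, with 14 of 16 and 11 of 17 above 0. CTSD went to 0.04, CTSA to 0.07, CTSZ to 0.14 and ATP6V1C1 to -0.10. ATP6V0A2 went to -0.20 and ATP6V0A1 to 0.07. ATP6V0C was then at 0.42 (edgeR adjusted p = 0.299), LAMP1 at 0.26 (adjusted p = 0.343), ATP6V1F at 0.24 (adjusted p = 0.380) and CTSO at -0.83 (edgeR adjusted p = 0.409). LAMP2, CTSS and ATP6V1A, of low GC content, turned to 0.18, 0.02 and 0.04. By class the median was then 0.18 for V0, 0.05 for V1 and 0.08 for cathepsins.

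**Figure D4:**
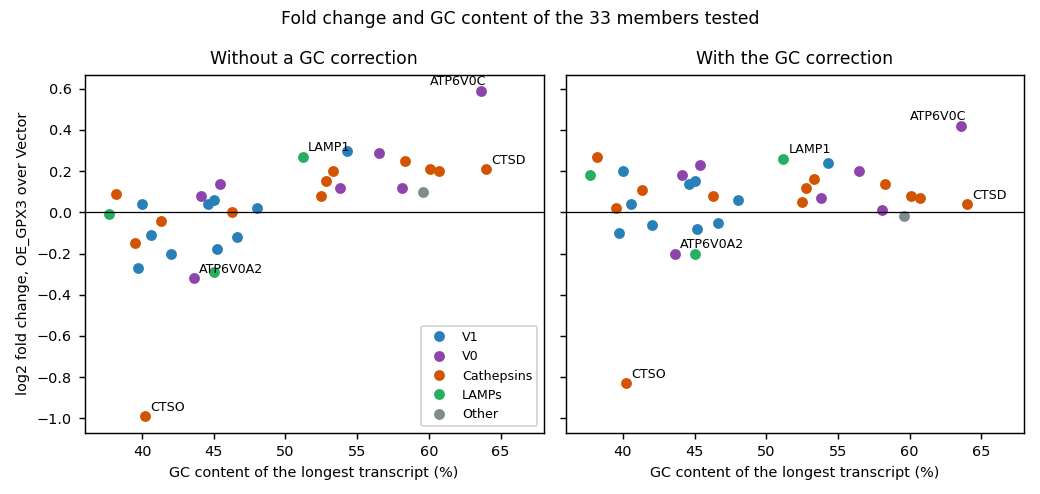
Log2 fold change of OE_GPX3 over Vector against GC content of the longest transcript for the 33 members tested, without (left) and with (right) a correction for GC content. The correlation is 0.648 on the left and 0.273 on the right, where CTSD lies at 0.04, ATP6V0C at 0.42, LAMP1 at 0.26 and CTSO at -0.83.

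**Figure D5:**
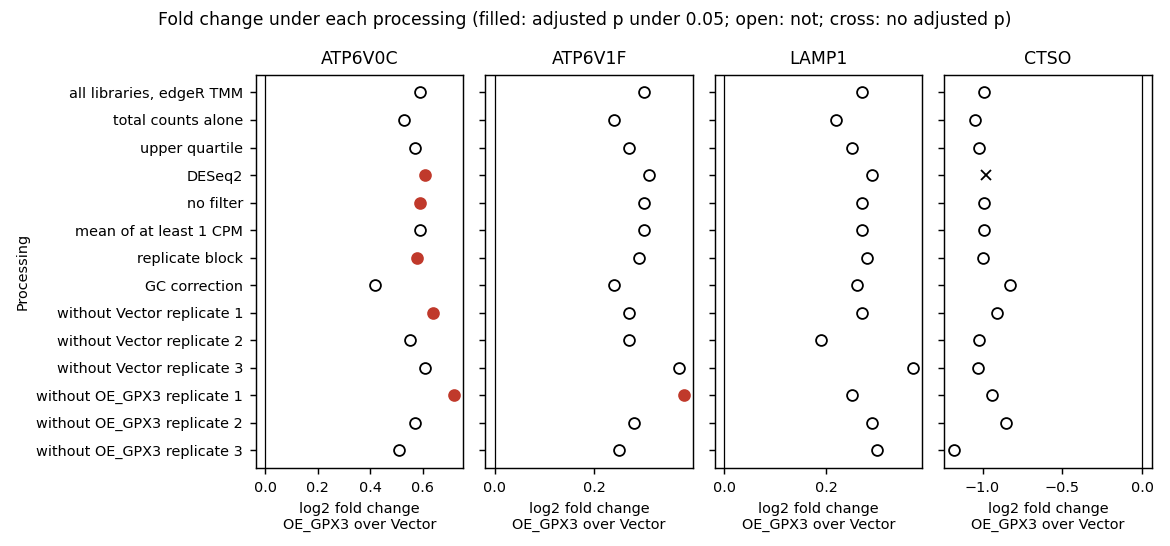
Log2 fold change of OE_GPX3 over Vector for ATP6V0C, ATP6V1F, LAMP1 and CTSO under each processing, with filled points where the adjusted p is under 0.05 and a cross where DESeq2 gave none. Each gene keeps its sign throughout, and filled points appear for ATP6V0C in 5 settings and for ATP6V1F in 1. The 1 for ATP6V1F is without OE_GPX3 replicate 1, a setting that called 657 of all 14707 genes tested.

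Among genes that work beside these, 0 of 123 tested genes of 6 lists were called by edgeR, against 0.263% of all genes tested. At an unadjusted p under 0.05, 11 were higher (8.94%, against 6.83% of all genes tested) and 3 lower (2.44%, against 7.76%), and DESeq2 called 2 (1.63%, against 0.802%). Of 17 accessory and assembly factors of the V-ATPase, 7 were above 0 and the median log2 fold change was -0.06. ATP6AP1, an accessory subunit, had 217, 211 and 215 CPM in OE_GPX3, against 186, 177 and 195 CPM in Vector (log2 fold change 0.20, edgeR adjusted p = 0.348), and NCOA7, which binds the pump and protects against oxidation, had 69.2, 74.8 and 62.7 CPM in OE_GPX3, against 91.8, 92.8 and 76.5 CPM in Vector (log2 fold change -0.34, edgeR adjusted p = 0.167). DMXL2, of the complex that assembles the pump, was at -0.26. Of 38 other lysosomal hydrolases and activators 29 were above 0, with a median of 0.10. Over all genes tested, 47.4% were above 0 and the median was -0.02. RNASET2, an acid ribonuclease, had 26.2, 24.2 and 21.6 CPM in OE_GPX3, against 17.7, 14.6 and 17.1 CPM in Vector (log2 fold change 0.55, edgeR adjusted p = 0.0604, DESeq2 adjusted p = 0.0185). HYAL2, a hyaluronidase, had 68.2, 77.2 and 69.5 CPM in OE_GPX3, against 55.3, 48.0 and 56.4 CPM in Vector (log2 fold change 0.43, edgeR adjusted p = 0.0727, DESeq2 adjusted p = 0.0200). Both were without overlap, and after the GC correction they were at 0.59 and 0.27. NAGLU, an enzyme of heparan sulfate breakdown, was at 0.30.

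Of 21 other lysosomal membrane proteins 13 were above 0 (median 0.04), led by the ion channel TPCN1 at 0.30 (edgeR adjusted p = 0.198), with SIDT2 at 0.21 and CLCN6, a chloride and proton exchanger, at -0.25. Of 8 cathepsin inhibitors 7 were above 0 (median 0.18). The secreted cystatin CST1 was abundant, at 628, 592 and 593 CPM in OE_GPX3, against 513, 371 and 570 CPM in Vector, with Vector replicate 2 the lowest (log2 fold change 0.32, edgeR adjusted p = 0.226). CST2 and CST4, its near copies, had log2 fold changes of 0.99 and 0.60 at under 4 CPM in every library, and counts of the 3 are uncertain for that likeness. Of 20 genes of sorting to lysosomes 11 were above 0 (median 0.05), with HPS6 at 0.29, AP1B1 at 0.18 and AP1S1 at 0.18. Of 19 regulators 10 were above 0 (median 0.03). SLC38A9, a lysosomal arginine sensor upstream of mTORC1, had a log2 fold change of -0.42 (edgeR adjusted p = 0.169), FNIP1, which works with folliculin in the same pathway, -0.50, and LAMTOR2, a scaffold subunit on the lysosome, 0.29. After the GC correction the list medians were -0.00 for accessory and assembly factors, 0.06 for hydrolases and activators and 0.05 for membrane proteins. They were 0.28 for cathepsin inhibitors, 0.05 for sorting and -0.03 for regulators, beside 0.00 over all genes tested.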

How the data were processed

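Per the labels' protocols, RNA of A549 cells was extracted with TRIzol; the library text there describes small RNA, while the members are messenger RNAs. The authors deposited whole-number counts per gene and FPKM values; the submitters' processing notes name hg38. The aligner, the counter and the strand setting are not stated. The deposited FPKM equal the count per gene length and 1 constant per library (largest relative deviation 5.33e-15), which differs from the total count by between -4.52% and 4.90%. All 43 members have the position and exon length of GENCODE release 29.

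Genes with low counts were removed with filterByExpr (minimum count 10, minimum total 15), and OE_GPX3 was compared with Vector in edgeR 4.0.16 (TMM, robust quasi-likelihood, two-sided), with Benjamini-Hochberg adjustment over 14458 genes at 0.05. Alternatives used DESeq2 1.42.0 and limma 3.58.1 on log2(FPKM + 1) for genes of at least 1 FPKM, which understates changes of low genes. The fits were tested on simulated counts, with the same spread for every gene and without a trend on GC content. Total counts were 15831693 to 18751815, and floors (3 counts) and intervals cover counting error or library spread only.

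Members and gene lists were chosen with earlier results of these data known. Named in full were the members with the 12 smallest p and the highest of each class, and from each list up to 3 genes by p.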

Additional observations from a re-analysis of the deposited data

How the results depend on the processing

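Over 13 alternatives to the edgeR fit, 23 of the 33 members tested kept the sign of their fold change in each. The other 10, between -0.15 and 0.10, were not called. With total counts alone ATP6V1B2, ATP6V1E2, ATP6V1H and CTSK turned to -0.02, -0.02, -0.04 and -0.06, and with upper-quartile scaling ATP6V1H and CTSK to -0.01 and -0.02. With DESeq2 LAMP2 turned to 0.01. With the GC correction CTSS, ATP6V1A, CTSV and LAMP2 turned to 0.02, 0.04, 0.11 and 0.18, and ATP6V1FNB to -0.02. Leaving out 1 library at a time, the range was -0.10 to 0.11 for LAMP2, -0.00 to 0.09 for ATP6V1B2, -0.23 to 0.34 for ATP6V1C2, -0.02 to 0.14 for ATP6V1E2, -0.05 to 0.08 for ATP6V1H, -0.32 to 0.39 for CTSK, -0.29 to 0.11 for CTSV and -0.52 to 0.52 for ATP6V1FNB. The cause was not tested.

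Of the members, DESeq2 and no filter each called 1, ATP6V0C, and the range over single libraries left out was 0 to 3. Of the genes of the 6 lists, DESeq2 called 2, no filter called 2, and leaving out single libraries gave 0 to 5. The median of the members went from 0.08 to 0.02 with total counts alone, where that of all genes went from -0.02 to -0.08, and leaving out single libraries gave 0.03 to 0.10. Over all genes, 68 were called with total counts (13 higher, 55 lower, against 14 and 24 with TMM) and 116 with DESeq2 (68 higher, 48 lower). No filter gave 129 and the GC correction 4. Leaving out single libraries gave between 1 (without OE_GPX3 replicate 2) and 657 (without OE_GPX3 replicate 1). On the FPKM, limma called 10 of 10814 genes tested and 0 of 28 members. At an unadjusted p under 0.05 it had 8 of the members, beside 1506 of all genes tested.

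The replicate numbers are not stated to pair the libraries. Deviations from the group means correlated at 0.192, 0.010 and 0.114 between libraries of the same number, and not every library correlated best with its own number. With the number as a block edgeR called 231 genes, 1 member (ATP6V0C, adjusted p = 0.0441) and 3 genes of the lists.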
